A study of Gallus gallus with 32 samples.

Results

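The pituitary gland of slow-growing and fast-growing broilers was compared at 3 weeks of age. The 8 libraries came from 8 male Ross308 chickens, a fast-growing meat line, and were taken by their labels for tissue, age and weight class from the 32 libraries of the series. A total of 4 birds had a low growth rate (LGR, labelled light) and 4 a high growth rate (HGR, labelled heavy). All were killed at 22 days of age, and none carried a transgene or received a drug. The same diets were fed ad libitum, and by the study's account feed was withdrawn for some hours before slaughter. The library titles carry a different number from the day given in the label, and the weight class stands under a tag named for another trait, so age and class rest on those labels and on the study's account of its 3-week birds. The slow growers were the lighter birds of a fast-growing line, not birds of a slow-growing breed. They were sorted from the heavier birds by body weight at 2 weeks and then housed in separate pens, so that the effects of pen and of growth rate cannot be told apart in these birds. Each library was made from the RNA of 1 bird, and the label names the gland without saying how its lobes were divided. For context, 8 pituitary libraries of LGR and HGR birds at 6 weeks and 8 hypothalamus libraries of the 3-week birds were also used. The study left 1 of its 3-week hypothalamus samples out of its own comparison after clustering, and all 8 were kept here. The 6-week birds were other animals than the 3-week birds. The day on the labels of these older birds differs from the slaughter day in the study's account, so their age is given in weeks only.

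The pituitary releases the hormones that set growth, metabolism, stress response and reproduction. Each hormone has its own cell type: somatotropes make growth hormone, lactotropes prolactin (PRL), corticotropes pro-opiomelanocortin (POMC), and thyrotropes and gonadotropes combine a shared alpha subunit (CGA) with a beta subunit of their own (TSHB, FSHB). Factors from the hypothalamus, such as thyrotropin-releasing hormone and somatostatin, act on receptors of these cells. Immune cells, stem-like supporting cells, vessels and connective tissue make up the rest of the gland. In such whole-gland RNA, fewer cells of a type and less RNA per cell cannot be told apart.

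The libraries held 14351918 to 18256297 counted reads in 7 birds and 6231478 in LGR replicate 4. That library stood apart from the others. Its mean distance to the other libraries was 158 on the log2 CPM scale (CPM, a gene's counts scaled to a common library size by the TMM method), against 76.2 to 80.6 for the other 7, and it was alone at the end of a first principal component that held 62.8% of the variance. The 5 hormone genes with a symbol and the most abundant gene of the gland took 27.6% of its counts, against 13.6% to 16.8% elsewhere. The genes of 66 cytosolic ribosomal proteins summed to 85380 CPM in it and to 30670 to 39060 CPM in the other birds. At equal depth 15861 genes were detected in LGR replicate 4 and 16724 to 16938 in the rest. Results are therefore given with this bird and, where they move, without it, a choice made after the data were seen. The part of its depth and composition in any difference was not tested.

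**Figure D1:**
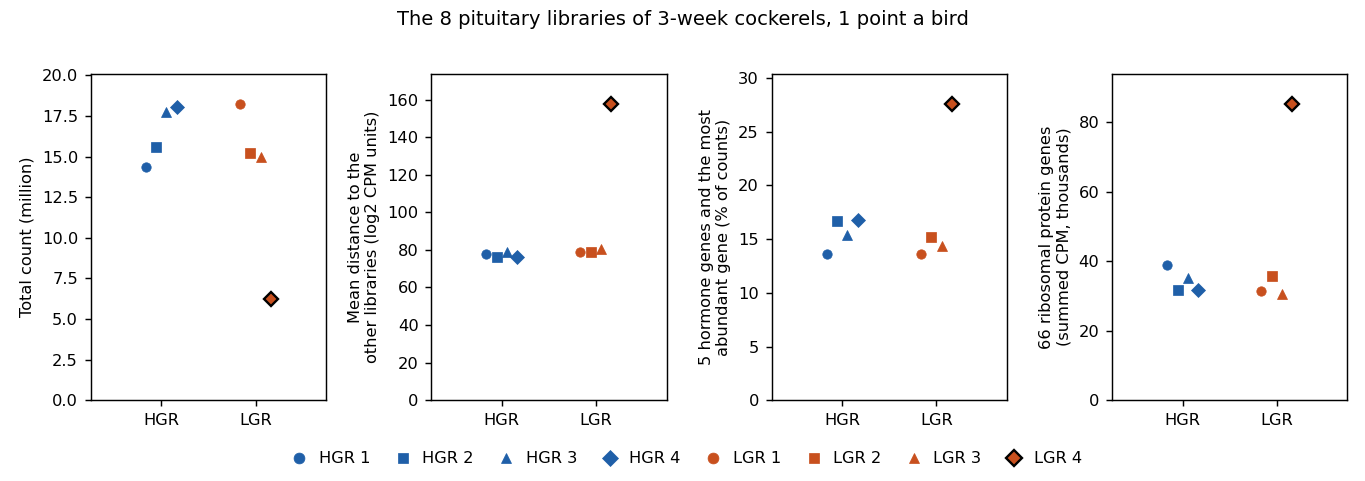
The 4 panels show, for each of the 8 birds, the total count (M), the mean distance to the other libraries in log2 CPM units, the percent of counts in 5 hormone genes and the most abundant gene, and the summed CPM of 66 ribosomal protein genes (k). LGR replicate 4, drawn with a black edge, lies apart from the other 7 birds in all 4 panels, with 6231478 counts and a mean distance of 158.

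No gene passed the test between LGR and HGR birds, an adjusted p of at most 0.05 with a fold change of at least 1.5. edgeR's quasi-likelihood test with Benjamini-Hochberg adjustment called 0 of 14730 genes, which is 0% of those tested, and the lowest adjusted p of a gene with a symbol was 0.963. At an unadjusted p under 0.05 there were 386 genes (2.62%), 182 higher in LGR birds (1.24%) and 204 lower (1.38%). All LGR birds lay above the highest HGR bird in 161 genes (1.09%) and below the lowest in 206 genes (1.4%). With 4 against 4 birds, a gene that does not differ is separated in either direction with an exact probability of 0.0286. The separated genes together did not exceed that share of all genes. The share of genes at an unadjusted p under 0.05 was below 0.05 as well. Of all log2 fold changes, LGR over HGR, 49.4% were negative. DESeq2 called 5 genes, CDH17 and ENSGALG00000039041 as higher in LGR birds and CCR7, ENSGALG00000037575 and ENSGALG00000046540 as lower. limma with sample quality weights called 3, SMAD1 and ENSGALG00000039041 as higher and ENSGALG00000037575 as lower, and gave LGR replicate 4 a weight of 0.0978 against 1.15 to 1.74 for the others.

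Without LGR replicate 4 the edgeR test called 1 of 14936 genes (0.0067%), which was SMAD1, and an unadjusted p under 0.05 was reached by 861 genes (5.76%), 390 higher in LGR birds (2.61%) and 471 lower (3.15%). The 8 libraries did not lie apart by growth rate. The mean distance between birds of different groups was 88.2 and that within groups 88.3 (one-sided exact permutation p = 0.486). Without LGR replicate 4 the distances were 69.3 and 68.4 (one-sided exact permutation p = 0.286, where 0.0286 is the smallest p the design allows).

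POMC, PRL, CGA and TSHB spread widely among the LGR birds with LGR replicate 4, and less without it. The LGR SD of POMC was 33225 CPM with that bird and 16711 CPM without it, against 7799 CPM in HGR birds. For PRL it was 9736 and 2698 CPM against 1616 CPM, and for CGA 17676 and 5976 CPM against 4337 CPM. FSHB had an SD of 756 CPM in LGR birds and 635 CPM in HGR birds. All 5 hormone genes with a symbol were tested, and for each the groups overlapped. POMC, the precursor of adrenocorticotropic hormone, was at 56031, 25735, 53107 and 105550 CPM in LGR replicates 1 to 4 and at 30596, 39351, 29594 and 46082 CPM in HGR replicates 1 to 4, the order kept for all values that follow. LGR replicates 1, 3 and 4 were above all HGR birds and LGR replicate 2 below them. The log2 fold change, LGR over HGR, was 0.72 ± 0.41 (SE), or 1.65-fold, with an edgeR adjusted p of 0.963. It was 0.30 ± 0.28 without LGR replicate 4.

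PRL stood at 23371, 19523, 24724 and 41507 CPM in LGR birds and at 20278, 18006, 20459 and 21917 CPM in HGR birds. Its log2 fold change was 0.44 ± 0.27, and 0.16 ± 0.12 without LGR replicate 4. The sign of CGA and TSHB hung on that bird. CGA had a log2 fold change of 0.25 ± 0.35 with it and -0.16 ± 0.19 without it, and TSHB 0.10 ± 0.24 with it and -0.11 ± 0.18 without it. FSHB, the beta subunit of follicle-stimulating hormone, was at 409, 2060, 579 and 1309 CPM in LGR birds and at 1564, 653, 2153 and 1160 CPM in HGR birds (log2 fold change -0.34 ± 0.53).

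The most abundant gene of the gland was ENSGALG00000000249, at chromosome 27 from 1787645 to 1791152, for which the deposited tables give no symbol. It lies there between RDM1 and CD79B, and between genes of those names the GRCg7b annotation of RefSeq lists GH, the growth hormone gene, and LOC107055278. No name was given to it from its position. The gene stood at 21142, 69047, 25819 and 185320 CPM in LGR birds and at 49156, 66618, 63967 and 65921 CPM in HGR birds. LGR replicates 1 and 3 were below every HGR bird, LGR replicates 2 and 4 above every one. The log2 fold change was 0.29 ± 0.64, and -0.67 ± 0.38 without LGR replicate 4. In the pituitary of 6-week birds the same gene ran from 13380 to 43351 CPM.

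LGR replicates 1 and 3 were also low in GHRHR and FSHB. GHRHR, the receptor of growth hormone-releasing hormone, was at 170, 546, 183 and 423 CPM in LGR birds and at 312 to 384 CPM in HGR birds, so that LGR replicates 1 and 3 were again below all HGR birds and the other 2 LGR birds above. FSHB was lowest in LGR replicates 1 and 3 as well, and these genes were picked out after their values were seen. AVPR1B, a vasopressin-type receptor of corticotropes, was at 357, 180, 409 and 628 CPM in LGR birds and at 263, 357, 248 and 263 CPM in HGR birds. TBX19, the factor that activates POMC in corticotropes, was at 103, 71.8, 146 and 72.6 CPM in LGR birds and at 62.4, 96.1, 70.2 and 68.3 CPM in HGR birds. LGR replicate 4 was highest and LGR replicate 2 lowest for AVPR1B, and LGR replicates 1 and 3 were highest for TBX19. These were also picked out after their values were seen.

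**Figure D2:**
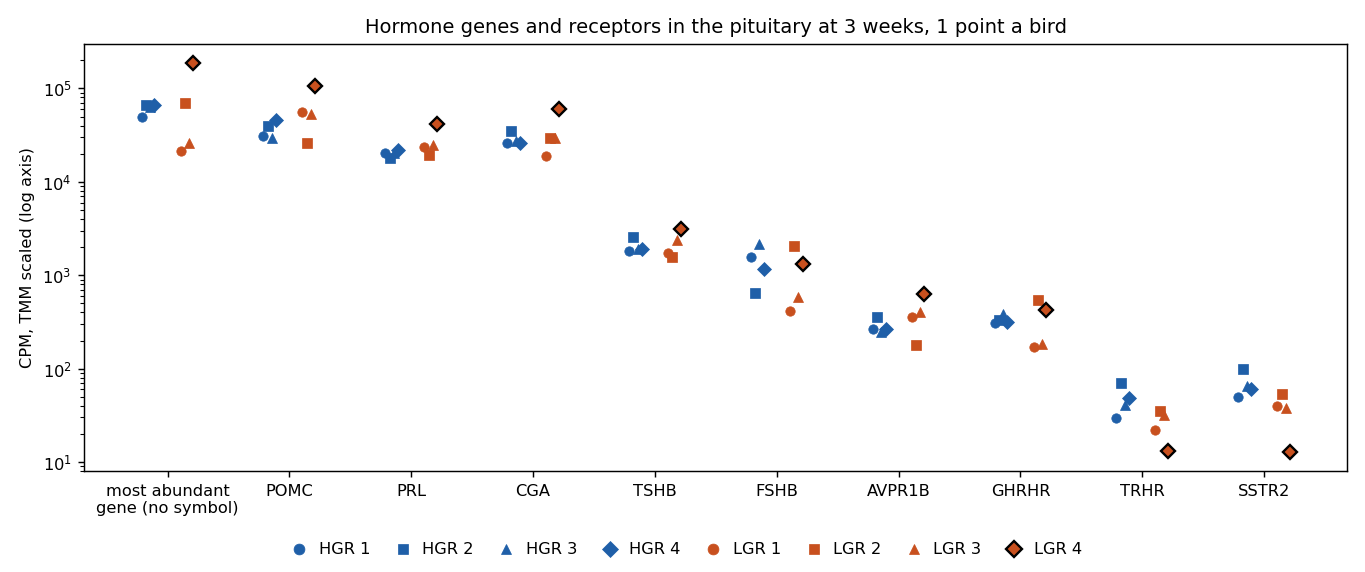
CPM on a log axis for the most abundant gene, 5 hormone genes and 4 receptors, 1 point a bird, with LGR replicate 4 edged in black. The HGR birds lie close together for the most abundant gene, between 49156 and 66618 CPM, and the LGR birds spread from 21142 to 185320 CPM.

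Receptors of hypothalamic factors were represented by 20 tested genes. None was called, 0 were higher in LGR birds at an unadjusted p under 0.05 and 2 were lower (10% against 1.38% of all genes), with a list median of -0.07 against 0.00 over all genes. Without LGR replicate 4, 2 of the 20 were higher (against 2.61% of all genes) and 2 lower (10% against 3.15%). TRHR, the receptor of thyrotropin-releasing hormone, was at 21.8, 35.1, 32.05 and 13.1 CPM in LGR birds and at 29.7, 69.8, 40.6 and 48.4 CPM in HGR birds. SSTR2, a somatostatin receptor, was at 40.2, 53.6, 38.3 and 12.9 CPM in LGR birds and at 49.3, 98.9, 64.7 and 59.9 CPM in HGR birds. Both were lowest in LGR replicate 4 and highest in HGR replicate 2, and LGR replicates 2 and 3 reached the HGR range for TRHR and LGR replicate 2 for SSTR2. The log2 fold changes were -0.87 ± 0.34 for TRHR and -0.90 ± 0.38 for SSTR2. Without LGR replicate 4 they were -0.67 ± 0.28 and -0.64 ± 0.23.

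Of 22 tested transcription factors of pituitary lineages, 0 reached an unadjusted p under 0.05 in either direction, against 2.62% of all genes. LHX3, needed for most hormone cell types in the mouse, was at 219 to 436 CPM in LGR birds and at 308 to 336 CPM in HGR birds. PITX1, a factor of the early gland, ran from 107 to 166 CPM and from 123 to 140 CPM. Of 10 granins and prohormone-processing genes, 0 reached that level with all birds. Without LGR replicate 4, 2 of the 10 were lower in LGR birds at that level, 20% against 3.15% of all genes. No gene of the list was then higher. CHGA, the granin of secretory granules, held 46680 to 55891 CPM in LGR birds and 43374 to 57939 CPM in HGR birds. The IGF system and growth hormone signalling list had 0 of 19 genes at that level in either direction, and the sex steroid receptor, activin and follistatin list 0 of 18. With so small a share over all genes, 0 in lists of this size does not show the groups to be alike.

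SMAD1 was the 1 gene called by edgeR between the 3-week groups without LGR replicate 4. It is a signal carrier of bone morphogenetic proteins, at chromosome 4 from 31390203 to 31414677. It was at 86.7, 102, 94.8 and 52.8 CPM in LGR birds and at 42.1, 48.2, 43.5 and 48.3 CPM in HGR birds. All LGR birds were above all HGR birds, and the bird nearest to the HGR range was LGR replicate 4. The log2 fold change was 0.89 ± 0.20 (edgeR, Benjamini-Hochberg adjusted p = 0.963). SMAD1 without LGR replicate 4 was higher in LGR birds by a log2 fold change of 1.05 ± 0.08, or 2.07-fold (edgeR adjusted p = 0.0153). That bird was singled out after the data were seen, and the SD of the LGR birds was 21.9 CPM with it and 7.82 CPM without it. At 6 weeks SMAD1 ran from 49.3 to 104 CPM in LGR birds and from 53.5 to 115 CPM in HGR birds, and in the hypothalamus of the 3-week birds it was at 21.9 ± 4.14 (SD) and 21.7 ± 3.43 CPM. The growth rate difference at 3 weeks minus that at 6 weeks was 1.24 ± 0.36 on the log2 scale (edgeR interaction, adjusted p = 0.658).

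A total of 10 genes with a symbol were the first by unadjusted p among those whose LGR birds all lay above the HGR birds. None passed the threshold with all 8 birds. CDH17, a cadherin of cell adhesion, was at 4.37, 6.12, 2.90 and 3.00 CPM in LGR birds and at 1.73, 1.44, 1.34 and 1.13 CPM in HGR birds (log2 fold change 1.56 ± 0.32, 2.94-fold). GEM, a small GTP-binding protein that restrains calcium channels in mammals, was at 26.1, 28.1, 33.2 and 68.5 CPM and at 18.3, 14.3, 10.3 and 12.6 CPM (1.48 ± 0.34, 2.78-fold). These low-expressed genes are neighbours on chromosome 2, CDH17 from 126538859 to 126565346 and GEM from 126585920 to 126594298, with 20573 bases between them. The pair was named for its low p before a window of 300 kilobases was drawn around it, so its own count there was set by the choice. Of the 15 tested genes of the window, none but these 2 reached an unadjusted p under 0.05 with all 8 birds. Without LGR replicate 4 ESRP1, a splicing regulator of epithelial cells, reached it too (log2 fold change 0.27 ± 0.10). Of all genes, 1.24% were higher in LGR birds at that level, and 2.61% without LGR replicate 4. CDH17 overlaps ENSGALG00000029287, and the kit does not mark strand, so reads of the overlap cannot be told apart.

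SYT10, a calcium sensor of vesicle release, was at 1.57, 1.53, 1.26 and 3.23 CPM in LGR birds and at 0.796, 0.376, 0.751 and 0.377 CPM in HGR birds. ABCA7, a lipid transporter, was at 25.7, 23.0, 25.7 and 24.9 CPM against 19.2, 15.8, 13.4 and 18.9 CPM (log2 fold change 0.56 ± 0.16). ABCA7 was separated in the same direction at 6 weeks, where the LGR birds ran from 23.3 to 27.9 CPM and the HGR birds from 16.9 to 21.6 CPM. It was the 1 gene of the 10 separated at that age, when 6 had positive and 4 negative log2 fold changes, the latter being SMAD1, GEM, DLK1 and TNFRSF11B. The share of all genes separated at 6 weeks was not counted. ALDH1A1, an enzyme of retinoic acid synthesis, was at 23.6, 18.1, 38.9 and 50.5 CPM against 17.4, 17.6, 13.4 and 12.4 CPM (2.14-fold), and LGR replicate 2 was just above the HGR birds. In the hypothalamus of the same birds ALDH1A1 ran from 137 to 198 CPM in LGR birds and from 21.8 to 96.5 CPM in HGR birds.

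DLK1, a membrane protein of the Notch ligand family, was at 13.8, 15.0, 16.2 and 36.4 CPM in LGR birds and at 12.5, 7.20, 9.92 and 8.23 CPM in HGR birds. Its log2 fold change was 1.08 ± 0.35 with LGR replicate 4 and 0.66 ± 0.19 without it. The remaining 3 were GALNT6, which starts the O-glycosylation of proteins, HPSE2, a heparanase family member, and TNFRSF11B, the decoy receptor osteoprotegerin, with log2 fold changes of 0.47 ± 0.13, 0.69 ± 0.22 and 0.37 ± 0.12. HPSE2 shares an overlap with HPS1.

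Among the genes lower in LGR birds, CCR7 came first. It is the chemokine receptor that guides T cells and dendritic cells, at chromosome 27 from 4891171 to 4899901. Its level was 1.82, 2.49, 1.64 and 1.15 CPM in LGR birds and 13.3, 4.01, 25.0 and 8.28 CPM in HGR birds. The groups did not overlap, and the HGR birds differed among themselves by more than the LGR birds did, with SDs of 9.07 and 0.55 CPM. The log2 fold change was -2.78 ± 0.55, or 6.87-fold lower (edgeR adjusted p = 0.963), and -2.68 ± 0.60 without LGR replicate 4.

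UBASH3A, a damper of T cell receptor signalling, was at 2.45, 2.61, 1.83 and 1.38 CPM in LGR birds and at 10.49, 2.88, 13.0 and 5.49 CPM in HGR birds. CD5, a T cell surface protein, was at 2.40, 3.12, 2.20 and 3.23 CPM against 8.83, 3.76, 11.7 and 5.49 CPM, and its gene overlaps VPS37C. LSP1, an actin-binding protein of leukocytes, was at 38.1, 30.6, 39.9 and 33.2 CPM against 64.2, 43.6, 88.5 and 59.7 CPM. For these 3 genes, as for CCR7, HGR replicate 3 was highest, HGR replicate 1 next and HGR replicate 2 the lowest HGR bird. Their log2 fold changes were -1.90 ± 0.47, -1.46 ± 0.37 and -0.85 ± 0.21.

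ANGPT1, the vessel-stabilizing ligand of the TIE2 receptor, was at 5.89, 3.76, 5.54 and 3.69 CPM in LGR birds and at 10.2, 9.14, 8.58 and 9.47 CPM in HGR birds (log2 fold change -0.97 ± 0.22, 1.95-fold lower). DPYSL3, a protein of the neuronal cytoskeleton, was at 42.4, 35.4, 43.2 and 35.0 CPM against 55.2, 50.6, 58.2 and 55.8 CPM (-0.49 ± 0.12). CYP1B1, a cytochrome P450 enzyme, was at 0.981, 0.956, 1.51 and 0.692 CPM against 3.45, 1.82, 2.74 and 3.07 CPM. LCA5L, PLCG1, a phospholipase of receptor signalling, and RRM2, a subunit of ribonucleotide reductase, had log2 fold changes of -1.09 ± 0.26, -0.55 ± 0.15 and -0.49 ± 0.13. At 6 weeks 0 of these 10 genes were separated, and 5 had positive and 5 negative log2 fold changes. How many of all genes were separated at that age was not counted.

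**Figure D3:**
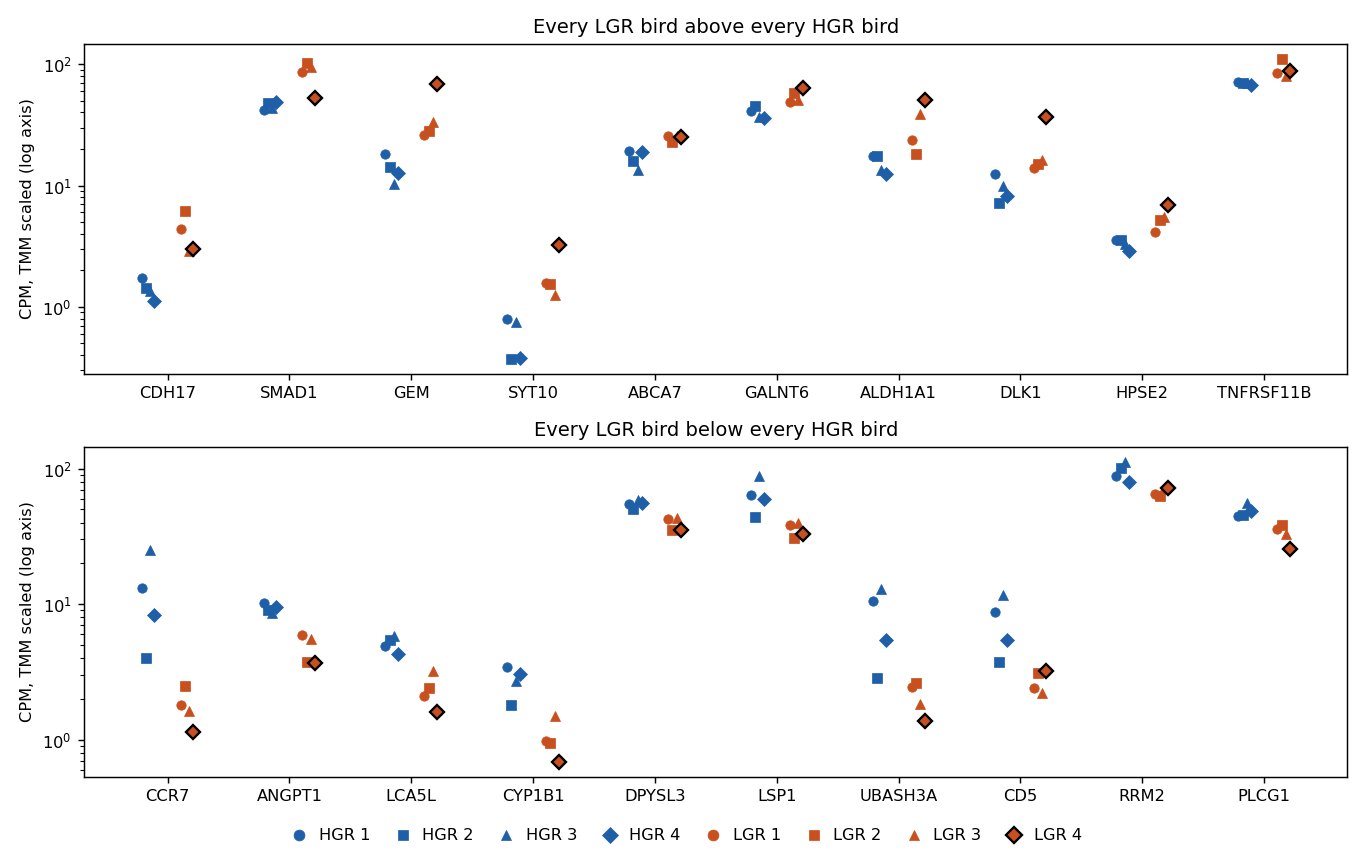
CPM on a log axis, 1 point a bird, for the 10 genes with a symbol of lowest unadjusted p whose LGR birds all lie above the HGR birds (upper panel) and the 10 whose LGR birds all lie below (lower panel), with LGR replicate 4 edged in black. The choice of genes sets the separation, which 161 and 206 of 14730 genes show, and SMAD1 is near 100 CPM in 3 LGR birds and at 52.8 CPM in LGR replicate 4.

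Genes of lymphocytes and antigen presentation lay mostly lower in LGR birds. Of 26 tested members, 8 were lower at an unadjusted p under 0.05 and 0 higher, or 30.8% of the list lower against 1.38% of all genes. None was called, 21 of 26 log2 fold changes were negative and the median was -0.60, against 0.00 over all genes. In 4 genes all LGR birds lay below all HGR birds, against 1.4% of all genes. Without LGR replicate 4 all 26 were negative, against 48.9% of all genes, with a median of -0.66, and 12 were lower at that level, 46.2% against 3.15% of all genes. Without HGR replicate 3 there were 5, without LGR replicate 4 and HGR replicate 3 there were 9, and without HGR replicate 2 there were 13. Among all genes, 386 were at that level in either direction with all birds, 196 without HGR replicate 3 and 364 without HGR replicate 2. All genes were not counted without both LGR replicate 4 and HGR replicate 3.

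PTPRC, the pan-leukocyte phosphatase CD45, was at 28.3, 30.4, 30.0 and 14.8 CPM in LGR birds and at 56.2, 32.7, 89.0 and 46.8 CPM in HGR birds (log2 fold change -1.11 ± 0.33). CD3E, a chain of the T cell receptor complex, was at 14.6, 22.6, 15.2 and 17.98 CPM against 42.2, 19.1, 69.8 and 30.2 CPM (-1.20 ± 0.37). LCK, the kinase next to that receptor, was at 7.02, 6.89, 5.54 and 6.46 CPM against 13.7, 6.95, 21.5 and 10.49 CPM, and its gene overlaps HDAC1. The order of the HGR birds was the one seen for CCR7, with HGR replicate 3 first and HGR replicate 2 within or next to the LGR range.

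ITGB2, the beta chain of leukocyte integrins, was at 33.4, 29.5, 31.5 and 17.98 CPM in LGR birds and at 46.4, 36.8, 58.4 and 41.6 CPM in HGR birds (-0.69 ± 0.22). The groups overlapped in all but 4 genes of the list, in the T cell genes CD3E and LCK as in genes that most cells express. B2M, the light chain of class I molecules, ran from 1229 to 2741 CPM in LGR birds and from 1300 to 1633 CPM in HGR birds, with a log2 fold change of 0.25, and -0.03 without LGR replicate 4. The summed level of the list, most of it from B2M and CD74, was 2985 to 5626 CPM in LGR birds, 2985 to 3525 CPM without LGR replicate 4, and 3093 to 4253 CPM in HGR birds. CCL19, a ligand of CCR7 held in the interferon list, was at 8.49, 6.89, 4.91 and 3.46 CPM in LGR birds and at 32.9, 5.13, 28.3 and 20.2 CPM in HGR birds, so that HGR replicate 2 lay among the LGR birds.

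The red cell markers, 3 tested genes, summed to 244 to 909 CPM in LGR birds and 214 to 1744 CPM in HGR birds, with HGR replicate 3 at 295 CPM and HGR replicate 1 at 1744 CPM. The extracellular matrix and mesenchyme list was highest in HGR replicate 3, at 7882 CPM against 3992 to 6529 CPM in the other 7 birds. It had 0 of 32 genes lower in LGR birds at an unadjusted p under 0.05 and 1 higher, TIMP3, an inhibitor of matrix proteases, with a log2 fold change of 0.55 ± 0.24. Without LGR replicate 4 TIMP3 was at 0.29 ± 0.16, and 0 genes of the list were higher at that level. The part of blood or of connective tissue taken with the gland in the lymphocyte genes was not tested. Of 21 macrophage and complement genes, 2 were lower (9.52% against 1.38% of all genes), C3AR1, the receptor of the complement fragment C3a, and SPI1, a factor of myeloid cells, with log2 fold changes of -0.57 ± 0.22 and -0.47 ± 0.19. Without LGR replicate 4, 3 of the 21 were lower (14.3% against 3.15% of all genes), and 19 log2 fold changes were negative.

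At 6 weeks the median log2 fold change of the lymphocyte list had the opposite sign. Several members of the list, among them LCK, CD3E and PTPRC, were reported by the study as differing in the hypothalamus of the 6-week birds. The counts at 6 weeks and those of the interaction with age are therefore not free of the choice of list. Of 26 genes, 16 were higher in LGR birds of that age at an unadjusted p under 0.05, against 3.65% of all genes, 0 were lower, against 3.12%, and the median was 0.76. LCK was at 20.1, 20.1, 9.22 and 8.34 CPM in the 6-week LGR birds and at 4.95, 5.74, 6.51 and 6.51 CPM in the 6-week HGR birds, which did not overlap. CCR7 was at 6.02, 4.79, 5.15 and 1.70 CPM and at 1.38, 1.22, 2.58 and 2.31 CPM at that age. PTPRC was near 89 CPM in the first 2 LGR birds of 6 weeks and between 28.6 and 38.4 CPM in the other 6 birds. CD3E was also highest in those 2 birds, at 53.2 and 56.3 CPM against 14.4 to 23.6 CPM in the other 6. For PTPRC the highest values were those of HGR replicates 3 and 1 at 3 weeks and of LGR replicates 1 and 2 at 6 weeks. All HGR birds were nonetheless above all LGR birds at 3 weeks for PTPRC and CCR7.

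The difference between the ages was tested by the interaction of growth rate and age, which called 0 of 15280 genes by edgeR, with 414 negative and 271 positive at an unadjusted p under 0.05. The growth rate difference at 3 weeks minus that at 6 weeks was negative at an unadjusted p under 0.05 for 18 of the 26 lymphocyte genes, against 2.71% of all genes, and positive for 0, against 1.77%. It was negative for 21 without LGR replicate 4, against 3.79%. CCR7 had a difference of -4.01 ± 0.71 on the log2 scale (edgeR adjusted p = 0.449). LCK had -2.31 ± 0.47 (edgeR adjusted p = 0.451). DESeq2 called 27 genes for this interaction, 26 of them negative, among them CCR7, LCK, CD3E, ZAP70, CD5, UBASH3A and EOMES, a factor of cytotoxic lymphocytes.

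In the hypothalamus of the same 3-week birds, 24 of the list were tested, 5 were higher in LGR birds at an unadjusted p under 0.05 (3.57% of all genes), 0 lower (2.24% of all genes), and the median was 0.27. CD3E was at 6.28 to 10.3 CPM in LGR birds and at 5.03 to 10.96 CPM in HGR birds there. HGR replicate 3, the bird with 69.8 CPM of CD3E in the pituitary, had 5.74 CPM in the hypothalamus. The interaction of growth rate and tissue called 0 of 15763 genes by edgeR and 2 by DESeq2, with 289 negative (1.83%) and 115 positive (0.73%) at an unadjusted p under 0.05. Of the list, 11 of 26 lymphocyte genes had a negative difference at that level. There were 14 without LGR replicate 4, against 2.67%, and 12 with the bird as a block, against 2.59%. The 2 interactions share the 3-week pituitary birds and are not independent of the comparison at 3 weeks.

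**Figure D4:**
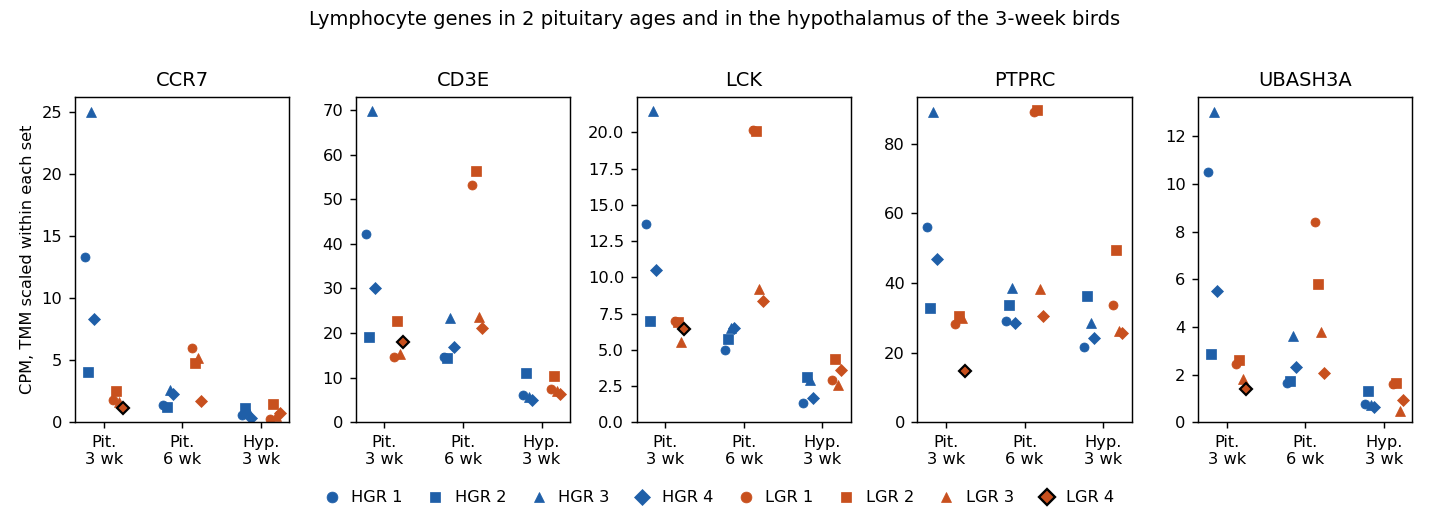
CPM, scaled within each set, of 5 lymphocyte genes in the pituitary at 3 weeks, the pituitary at 6 weeks and the hypothalamus of the 3-week birds, 1 point a bird. Marker shapes give the replicate number, 6-week birds are other animals than 3-week birds, and the black edge marks LGR replicate 4 of the 3-week pituitary. The HGR points reach highest at 3 weeks (CCR7 at 25.0 CPM), and the LGR points at 6 weeks (LCK at 20.1 CPM).

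Genes of cell division and DNA replication lay slightly lower in LGR birds. Of 44 tested genes, 11 were lower at an unadjusted p under 0.05, 25% against 1.38% of all genes, 0 were higher, 42 had a negative log2 fold change, against 49.4% of all genes, and the median was -0.32. None was called. RRM2, which makes deoxyribonucleotides, was at 65.2, 62.3, 72.5 and 71.9 CPM in LGR birds and at 88.5, 102, 112 and 80.0 CPM in HGR birds (log2 fold change -0.49 ± 0.13). MCM6, part of the replicative helicase, was at 76.8, 74.9, 79.7 and 61.8 CPM against 96.1, 105, 98.7 and 86.5 CPM (log2 fold change -0.39 ± 0.12). TPX2, a spindle assembly protein, was at 23.1, 23.7, 24.4 and 15.9 CPM against 31.3, 33.4, 35.1 and 27.7 CPM (-0.54 ± 0.17). In these 3 genes all LGR birds were below all HGR birds, as in 6 of the 44 genes of the list, against 1.4% of all genes.

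MCM5, another subunit of that helicase, had a log2 fold change of -0.39 ± 0.13, and HMOX1 overlaps its gene. PCNA, the sliding clamp of replication, ran from 134 to 184 CPM in LGR birds and from 141 to 168 CPM in HGR birds. The count of lower genes moved with single birds. It was 16 without LGR replicate 4 (36.4% against 3.15% of all genes), 22 without LGR replicate 3 and 6 without LGR replicate 1. It was 4 without LGR replicate 2, 4 without HGR replicate 2, and 3 without HGR replicate 3. The number of all genes at that level in either direction moved too, from 386 with all birds. It was 861 without LGR replicate 4, 618 without LGR replicate 3 and 560 without LGR replicate 1. It was 364 without LGR replicate 2, 364 without HGR replicate 2 and 196 without HGR replicate 3. At 6 weeks the list had a median of 0.26. At that age 1 of 44 genes was higher at an unadjusted p under 0.05, against 3.65% of all genes, and 0 lower, against 3.12%. The interaction with age was negative at that level for 16 of 44 genes, against 2.71% of all genes.

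The glucocorticoid receptor and target list had a median of 0.37 over 13 genes, 2 higher in LGR birds (against 1.24% of all genes) and 0 lower. Neither reached that level without LGR replicate 4, when the median was 0.25 and 0 genes of the list were higher. CEBPD, an early glucocorticoid-induced factor, was at 18.8, 67.7, 92.7 and 223 CPM in LGR birds and at 32.5, 60.6, 21.6 and 20.2 CPM in HGR birds. FKBP5, which damps the glucocorticoid receptor, was at 86.9, 298, 679 and 1374 CPM in LGR birds and at 194, 400, 267 and 139 CPM in HGR birds, with an edgeR adjusted p of 0.963. For both genes LGR replicate 1 was the lowest of the 8 birds and LGR replicate 4 the highest. CEBPB, a related factor, had a log2 fold change of 0.83 ± 0.34, and 0.49 ± 0.25 without LGR replicate 4, and CEBPD of 1.56 ± 0.67 and 0.82 ± 0.54. PDK4, a kinase that limits glucose oxidation during fasting, was at 337, 465, 974 and 879 CPM against 269, 364, 132 and 331 CPM (1.28 ± 0.41, and 1.11 ± 0.42 without LGR replicate 4). LGR replicates 3 and 4 were also the highest for PDK4 in the hypothalamus, at 68.1 and 83.4 CPM against 9.89 to 29.4 CPM in the other 6 birds.

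The thyroid hormone list had 11 tested genes, 2 of them higher in LGR birds (against 1.24% of all genes). Its median was 0.01 with 7 positive, and 0.23 with all 11 positive without LGR replicate 4. CPQ, a peptidase linked to the release of thyroid hormone from thyroglobulin, was at 52.2, 79.2, 89.3 and 137 CPM in LGR birds and at 34.8, 41.5, 60.0 and 54.8 CPM in HGR birds (log2 fold change 0.90 ± 0.29). SLCO1C1, a thyroid hormone carrier, was at 0, 6.95, 1.51 and 1.84 CPM in LGR birds and at 0.161 to 0.645 CPM in HGR birds. DIO2, which activates thyroid hormone, ran from 16.1 to 200 CPM in LGR birds and from 47.1 to 190 CPM in HGR birds. Of 18 clock genes, 2 were higher (against 1.24% of all genes), ARNTL2, at 50.98, 40.5, 47.5 and 48.6 CPM against 41.9, 33.8, 36.7 and 34.7 CPM, and PER3, a period gene, with log2 fold changes of 0.35 ± 0.13 and 0.43 ± 0.16. The clock list had a median of -0.05 with 12 negative, and of 0.08 with 12 positive without LGR replicate 4. At 6 weeks PER3 was at 32.5 to 41.3 CPM in LGR birds and at 18.7 to 25.4 CPM in HGR birds, which did not overlap. ARNTL2 was at 33.1 to 39.3 CPM and at 38.1 to 49.2 CPM at that age, with a log2 fold change of -0.21 ± 0.10.

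At an unadjusted p under 0.05, to be read against 1.24% higher and 1.38% lower among all genes, the remaining lists held few genes. Of 21 immediate early genes, 1 was higher, KLF4, with a log2 fold change of 0.68 ± 0.25 and a list median of 0.39. Of 16 interferon response genes, 2 were lower, CCL19 and IRF1, an interferon-induced factor, with log2 fold changes of -1.83 ± 0.52 and -0.36 ± 0.15. Cholesterol synthesis and uptake had 1 of 20 lower, NSDHL, an enzyme of sterol synthesis, at 21.1 to 28.4 CPM in LGR birds and 28.7 to 35.7 CPM in HGR birds. Heat shock genes had 1 of 20 higher, HSPB1 (1.03 ± 0.39), and 2 lower, HSPD1 (-0.25 ± 0.10), whose gene overlaps ENSGALG00000009070, and CRYAB. The endoplasmic reticulum stress list had 0 of 35 in either direction, and hypoxia and glycolysis had only PDK4 of 23. Without LGR replicate 4 the shares among all genes were 2.61% higher and 3.15% lower. Of the cholesterol list 3 of 20 were then lower (15%). Of the hypoxia list 2 of 23 were lower (8.7%) and 1 higher. Of the endoplasmic reticulum stress list 2 of 35 were lower (5.71%), with 30 of 35 log2 fold changes negative. Of 21 immediate early genes 2 were then higher.

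Lists of short abundant transcripts changed sign with LGR replicate 4. All 66 ribosomal protein genes had a positive log2 fold change with a median of 0.41, and without that bird 63 were negative with a median of -0.09. Of 50 nuclear genes of oxidative phosphorylation, 48 were positive with a median of 0.30, and 43 were negative with a median of -0.09 without it. Their summed level was 12380 CPM in LGR replicate 4 and 5230 to 6060 CPM in the other birds. In neither list was a gene at an unadjusted p under 0.05 with all 8 birds, against 2.62% of all genes. Without LGR replicate 4, 7 of the 50 oxidative phosphorylation genes were lower at that level (14% against 3.15% of all genes) and 0 of the 66 ribosomal protein genes.

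**Figure D5:**
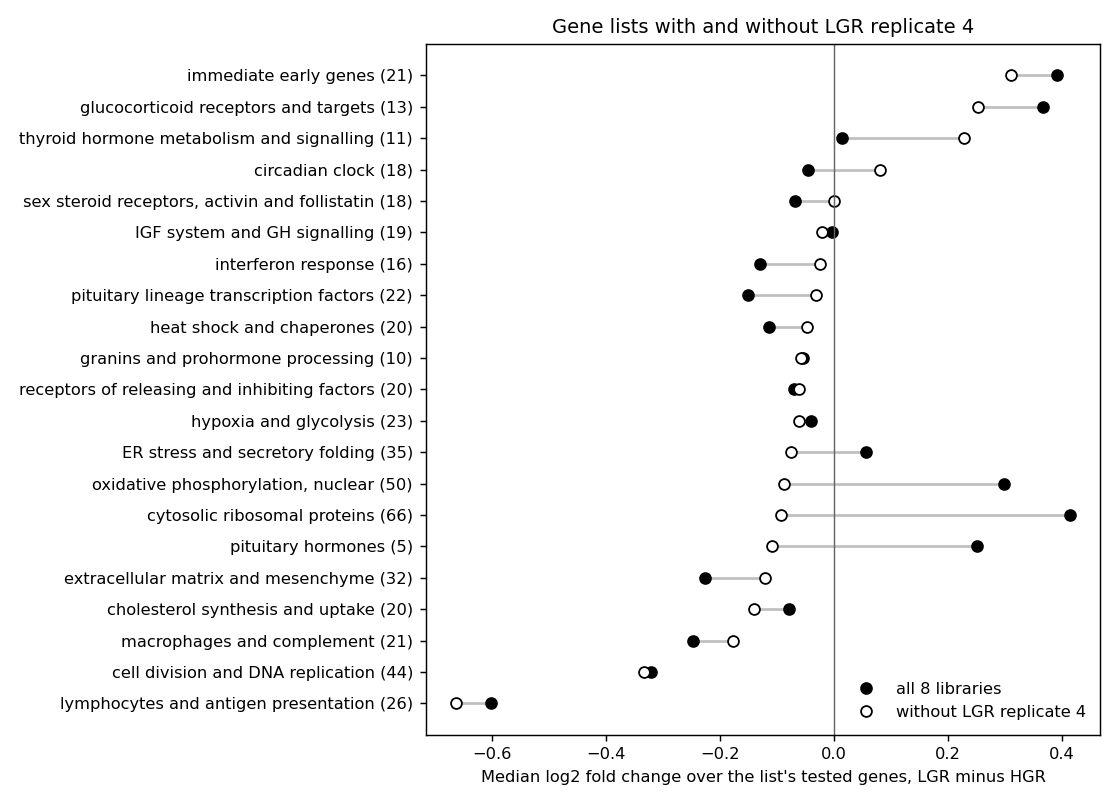
Median log2 fold change, LGR minus HGR, of 21 gene lists, with the number of tested genes in brackets, over all 8 libraries (filled) and without LGR replicate 4 (open). The lymphocyte list (-0.60 and -0.66) and the cell division list (-0.32 and -0.33) lie lowest in both, and the ribosomal protein, oxidative phosphorylation, hormone, ER stress and clock lists cross 0.

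HGR replicate 1 held more of the glial transcripts S100B and GFAP than the other birds. S100B was at 72.2 CPM in it and at 0.638 to 1.61 CPM in the other 7, and GFAP, an astrocyte filament, at 17.1 against 0.108 to 3.38 CPM. CRYAB was at 40.8 CPM in HGR replicate 1 and at 0 to 1.77 CPM in the rest. The astrocyte and ependyma list, 9 of 9 genes tested, summed to 222 CPM in that bird, to 157 to 162 CPM in the other HGR birds and to 65.0 to 153 CPM in LGR birds, and none of its genes was at 0 in all birds. Its other 7 genes summed to 133 CPM in HGR replicate 1, less than the 156 to 161 CPM of the other HGR birds and within the 63.2 to 151 CPM of the LGR birds. The oligodendrocyte list was also highest in HGR replicate 1, at 129 CPM against 44.0 to 96.6 CPM in the other 7 birds. The log2 fold change of CRYAB was -3.54 ± 1.46 with this bird and -0.18 without it. HGR replicate 1 was second to HGR replicate 3 in CCR7, UBASH3A, CD5 and PTPRC, and without it 7 lymphocyte genes were lower in LGR birds at an unadjusted p under 0.05. Of all genes, 269 were at that level in either direction without it, against 386 with all birds. The part of HGR replicate 1 in the lymphocyte genes was not tested. ALDH1A1 and PROM1, a stem cell surface protein, were the 2 genes of 6 in the supporting and stem cell list that were higher in every LGR bird (against 1.09% of all genes). In that list 3 log2 fold changes were positive and 3 negative, and S100B was lower at an unadjusted p under 0.05. PROM1 was at 119, 156, 114 and 113 CPM against 91.6, 90.5, 106 and 110 CPM.

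A few genes without a symbol or coordinates in the tables were near 0 in one group, and were chosen after their values were seen. ENSGALG00000037575 had 0 counts in all 4 LGR birds and 41, 65, 80 and 104 counts in HGR birds, at least 79.7-fold lower in LGR birds against a floor of 3 counts over the group. Its edgeR adjusted p was 0.195. In the hypothalamus of the same birds it had 0, 0, 0 and 9 counts in LGR birds and 48, 0, 99 and 62 in HGR birds. At 6 weeks, in other birds, the pituitary counts were 0, 86, 0 and 43 in LGR and 0, 38, 0 and 145 in HGR birds, so that the gene was at 0 in birds of both groups.

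ENSGALG00000039041 showed the opposite, with 65, 30, 50 and 7 counts in LGR birds and 0, 0, 3 and 1 in HGR birds (edgeR adjusted p = 0.195). Its hypothalamus counts were 0 to 4 in all 8 birds, and at 6 weeks 3 HGR birds and 1 LGR bird had 22 to 47 counts. ENSGALG00000046540 had 0 counts in the LGR birds and 23, 15, 4 and 35 in HGR birds, at least 21.2-fold lower. ENSGALG00000046590 had 23, 13, 18 and 0 counts in LGR birds and 0 in HGR birds, and 41, 24, 18 and 0 against 0 in the hypothalamus of the same birds. The last 2 genes did not reach the expression filter of the edgeR test. Intervals and floors here cover counting error only.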

How the data were processed

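RNA of 8 pituitaries was sequenced from TruSeq v2 libraries, a kit that does not mark strand. Per the labels the authors used CASAVA 1.8.2, FastQC, Bowtie2 and RSEM, and they deposited whole-number counts per Ensembl gene, not normalized, for 24881 genes. Aligner settings and genome build for the pituitary are not given in the sources used here. Symbols for 10132 genes and all coordinates came from result tables the authors deposited, whose DESeq2 fold changes and p-values were not used. The study's methods describe the hypothalamus. Groups, ages and replicates came from the labels.

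Counts were tested with edgeR 4.0.16 under R 4.3.3 (TMM, filterByExpr with a minimum count of 10 and total of 15, quasi-likelihood test, Benjamini-Hochberg adjustment over all genes tested). Calls needed an adjusted p no higher than 0.05 together with a change of 1.5-fold or more. CPM values are scaled by TMM, and distances use log2 CPM with a prior count of 2. Interactions with age and tissue were fitted over 16 libraries each. Single values were compared by exact permutation. Alternatives were DESeq2 1.42.0, limma 3.58.1 (voomWithQualityWeights), other scalings, no filter, a replicate block, 1 fit over 16 pituitary libraries and leaving out each library. Pairs of libraries of a group differed by more than counting noise, and 0 columns stayed unmapped.

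Same bird codes link pituitary and hypothalamus, and the deviations of the 2 tissues of a bird correlated with r from 0.0964 to 0.489 over 8 birds. Named genes were the hormone genes, up to 10 genes with a symbol per direction of lowest unadjusted p among those whose groups did not overlap, and up to 4 genes per list of lowest unadjusted p. A few more list members (LHX3, PITX1, CHGA, B2M, DIO2, PCNA, FKBP5) and genes of the axis were named after their values were seen. The members and lists were chosen with earlier results of these data known, and some list genes were named by the study from the hypothalamus of these birds. The smallest two-sided exact p of 4 against 4 birds is 0.0286. Sequences were not used here.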

Additional observations from a re-analysis of the deposited data

Results flagged for a closer look

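In 122 groups of 4 values, 14 had a bird far from the other 3 (11.5%), and 9 of these were LGR replicate 4. The cutoff gives about 5% for independent, normally distributed values. These groups share birds, and most genes were named for a low unadjusted p, so the comparison with 5% is not a test. LGR replicate 4 had 15861 genes detected at equal depth. The 5 hormone genes and the most abundant gene took 27.6% of its counts, and the 10 most abundant genes 35.7%. Its mean distance was 158. It was also far above the other LGR birds in GEM (68.5 CPM against 26.1 to 33.2), SYT10 (3.23 against 1.26 to 1.57) and DLK1 (36.4 against 13.8 to 16.2), and below them in TPX2 (15.9 against 23.1 to 24.4) and PTPRC (14.8 against 28.3 to 30.4).

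HGR replicate 1 was apart in CRYAB, a small heat shock protein, at 40.8 CPM against 0.484 to 1.77, and in ENSGALG00000000249, at 49156 CPM against 63967 to 66618. HGR replicate 2 was above the other HGR birds in CGA, at 35219 CPM against 26159 to 27622, and in TSHB, at 2582 CPM against 1797 to 1927. LGR replicate 2 was above the other LGR birds in IRF1, at 39.3 CPM against 30.9 to 32.2.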

How the results depend on the processing

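The count of 0 called genes was the same with RLE or upper-quartile scaling, no filter, adjusted p alone, 1 fit over 16 pituitary libraries and the replicate block, and 0 to 1 without 1 library. DESeq2 called 5 and limma with quality weights 3. Without LGR replicate 4, chosen after seeing the data, they called 22 and 4. The replicate block called 0 genes, with 222 genes at an unadjusted p under 0.05 against 386. Same-numbered LGR and HGR birds are different birds, and their deviations correlated with r of -0.256, 0.0926, 0.0422 and -0.221. For the interaction with age DESeq2 called 27 genes, leaving out 1 library gave 0 to 2, where the 2 without HGR replicate 2 were CCR7 and ENSGALG00000012056, and the replicate block 0. For that with tissue DESeq2 called 2, ESRP2 and MEIS2A.1, leaving out 1 library 0, and the bird as block 0. The distance between minus within groups was -0.155, and -9.88 to 11.6 without 1 library.

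Over 54 named genes and 17 settings, 13 of 918 log2 fold changes changed sign, in 3 genes. Most of these 54 genes were named for a low unadjusted p or for groups without overlap, a choice that itself makes sign changes rare. CGA was at -0.15 with limma, -0.16 without LGR replicate 4, and -0.16 (DESeq2) and -0.22 (limma) there. TSHB was at -0.12, -0.11, -0.11 and -0.12 in the same order. ENSGALG00000000249 was at -0.79, -0.67, -0.67 and -0.99, and at -0.28 with the replicate block. Without 1 library CGA ran from -0.16 to 0.45, TSHB from -0.11 to 0.23 and ENSGALG00000000249 from -0.67 to 0.60. Lower cell division genes numbered 11, and 7 with the replicate block, 16 with DESeq2 and 26 with limma, and without LGR replicate 4 20 with DESeq2 and 20 with limma. Lower lymphocyte genes numbered 8, and 7 with the replicate block, 11 with DESeq2 and 12 with limma, and without LGR replicate 4 13 with DESeq2 and 6 with limma. All genes at an unadjusted p under 0.05 in either direction numbered 386, and 222 with the replicate block, 662 with DESeq2 and 866 with limma. Without LGR replicate 4 they numbered 937 with DESeq2 and 882 with limma. The cause of these moves was not tested. With 4 birds a group and 1 shallow library, no gene listed here as not called is shown to be alike in the groups.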
